A study of Rattus norvegicus with 12 samples.

Results

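Immediate early transcription factors were followed as a set of 10 genes: the AP-1 subunits of the Fos family (Fos, Fosb, Fosl1, Fosl2) and of the Jun family (Jun, Junb, Jund), with the early-response factors Egr1, Ier2 and Myc. They were taken by gene symbol, and 11 of the 18752 transcripts in the tables carry these symbols, or 10 of 17301 gene names. Fosl2 is listed with 2 transcripts and each other gene with 1. RNA came from adult rat ventricular myocytes (ARVMs), primary heart muscle cells of Sprague Dawley rats that keep their adult form in culture. The 6 Ad-h-NR4A2 samples had received an adenovirus carrying full-length human NR4A2 under the CMV promoter, and the 6 control samples, Ad-GFP, an adenovirus carrying eGFP. Both groups were thus exposed to virus, at 50 MOI, and collected 48 h later without further stimulation; the rats were male, per the study's methods, and the labels give no age. Samples of both groups carry the numbers 24 to 29. Same-numbered samples were taken as pairs for pair differences and for an alternative fit with a term for the sample number (the replicate block). The main fit, which gave the calls, was unpaired.

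Immediate early genes are transcribed within minutes of a stimulus from factors already present in the cell, and most of their mRNAs decay quickly. Fos proteins bind DNA mainly as dimers with a Jun protein, whereas Jun proteins can also pair with each other, and these dimers are called AP-1. In heart muscle, such genes are known as early responders to adrenergic stimulation and stretch, and the NR4A receptors belong to the same response.

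At 48 h, the 10 genes did not move as 1 group. Fosl2 rose by 5.56-fold and Myc by 1.68-fold in Ad-h-NR4A2 samples, Jund fell to a ratio of 0.568 and Fosl1 to 0.556, and 6 genes were not called. Of these 6, Fos, Egr1 and Ier2 had ratios of 0.945, 0.943 and 1.08, and Fosb, Junb and Jun of 1.02, 0.891 and 1.27. A gene was called where limma on log2(FPKM + 0.1) gave a Benjamini-Hochberg-adjusted p below 0.05 over 10950 genes and the group means differed at least 1.5-fold. By this rule 15.2% of all tested genes were called, 7.94% higher and 7.24% lower, compared with 2 higher and 2 lower of the 10. Their median log2 fold change was -0.03, and that of all tested genes -0.02. Values of the groups did not overlap in 3 of the 10 (Fosl2, Jund and Myc), compared with 21.5% of all tested genes. The 10 genes were chosen with earlier results of these data known, so comparisons with all genes are no test of the set. FPKM was above 0 in every sample for all 10 genes, so that each of them entered the test.

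**Figure D1:**
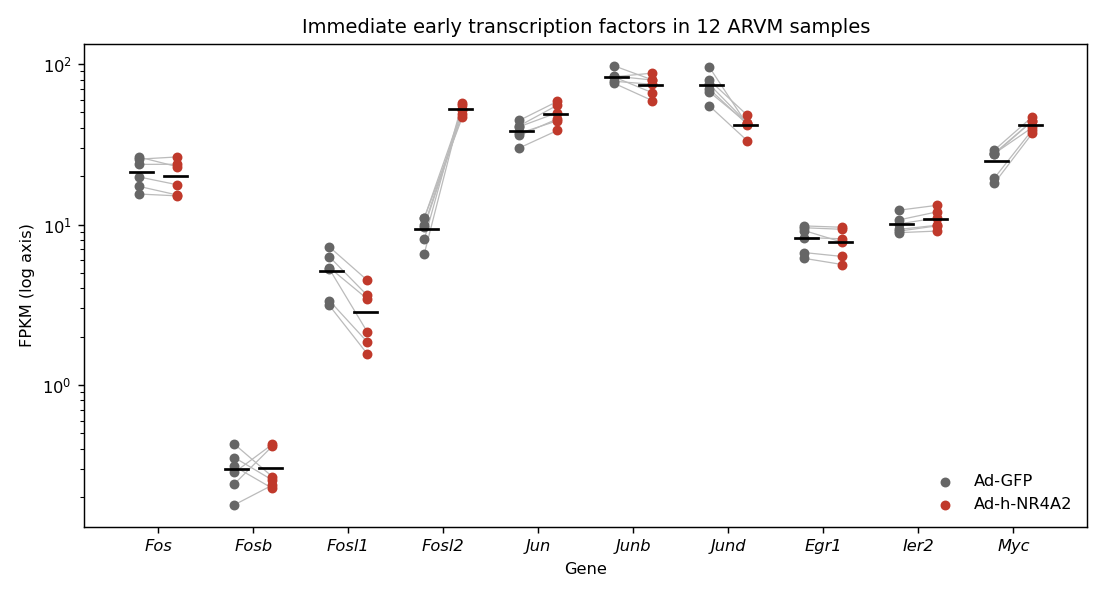
FPKM (log axis) of the 10 genes in each of 12 samples, Ad-GFP in gray and Ad-h-NR4A2 in red; lines join same-numbered samples and black bars are group means. The 6 Ad-h-NR4A2 points of Fosl2 (46.7 to 57.4 FPKM) sit far above the 6 Ad-GFP points (6.59 to 11.0), whereas those of Fos, Egr1 and Ier2 lie side by side.

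The gene transduced was checked first. Nr4a2, for which rat and human transcripts cannot be told apart here, had 0.626 to 1.40 FPKM in Ad-GFP samples and 445 to 592 in Ad-h-NR4A2 samples. Low FPKM are whole multiples of what 1 fragment is worth, which put the depth at 18700000 to 27800000 fragments (Ad-GFP) and 21600000 to 27100000 fragments (Ad-h-NR4A2). Of 7 cardiomyocyte markers, 3 fell (42.9% called, compared with 15.2% of all genes). Summed FPKM of the 7 was 18767 to 24264 in Ad-GFP and 16434 to 20122 in Ad-h-NR4A2 samples. Summed FPKM of 8 fibroblast markers was 9.22 to 30.7 and 5.85 to 26.9 (1 of 7 tested fell, Col1a2 listed at 0 in all samples), and that of 5 endothelial markers 6.43 to 20.4 and 5.33 to 19.6 (none called). For 4 smooth muscle markers it was 7.07 to 20.3 and 6.86 to 16.5, with 1 of 3 tested lower. For 6 macrophage and leukocyte markers it was 7.04 to 18.0 and 39.1 to 50.5, with Csf1r and Cd14 higher among 4 tested, while Cd68 had 0.463 and 0.482 FPKM on average and the pan-leukocyte marker Ptprc 0.0258 and 0.0218. The part of such cells in the results was not tested, and in bulk samples fewer cells of a type cannot be told apart from less RNA per cell.

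Promoter sequence was found for 7 of the 10 genes in RefSeq (build GRCr8) and is shown for a pair that was called (Fosl2, Jund) and a pair that was not (Egr1, Ier2). Each line gives the 250 bases before the annotated start, 5′ to 3′; capitals mark a CRE (TGACGTCA) or a CArG box, the site of serum response factor. Fosl2 is at chr6:30039270-30039519, minus strand, Jund at chr16:18769772-18770021, minus strand, Egr1 at chr18:26736828-26737077, plus strand, and Ier2 at chr19:40399123-40399372, plus strand.
Fosl2: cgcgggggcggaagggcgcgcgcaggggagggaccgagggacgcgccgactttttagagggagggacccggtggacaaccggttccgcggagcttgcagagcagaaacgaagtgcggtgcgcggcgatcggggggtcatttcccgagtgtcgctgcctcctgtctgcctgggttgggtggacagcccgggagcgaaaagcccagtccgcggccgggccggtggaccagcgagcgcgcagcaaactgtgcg
Jund: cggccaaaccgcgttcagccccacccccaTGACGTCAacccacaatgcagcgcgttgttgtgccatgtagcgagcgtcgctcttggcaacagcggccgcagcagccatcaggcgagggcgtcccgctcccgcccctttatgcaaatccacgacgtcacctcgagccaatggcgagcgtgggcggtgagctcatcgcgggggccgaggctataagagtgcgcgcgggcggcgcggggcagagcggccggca
Egr1: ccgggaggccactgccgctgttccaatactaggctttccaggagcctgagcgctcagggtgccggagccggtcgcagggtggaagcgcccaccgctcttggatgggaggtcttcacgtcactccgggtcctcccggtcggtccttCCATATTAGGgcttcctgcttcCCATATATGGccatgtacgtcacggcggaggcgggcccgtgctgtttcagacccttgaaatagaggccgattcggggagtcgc
Ier2: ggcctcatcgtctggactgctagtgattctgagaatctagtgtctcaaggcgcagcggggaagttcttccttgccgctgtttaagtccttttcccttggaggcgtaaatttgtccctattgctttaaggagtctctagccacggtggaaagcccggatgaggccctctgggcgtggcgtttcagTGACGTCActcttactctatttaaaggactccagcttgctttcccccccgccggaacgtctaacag
The search covered these bases and the 50 after the start, on both strands. A CRE, the site bound by CREB proteins, was in Jund (-221 to -214 from the start) and in Ier2 (-66 to -59), and in 1.83% of all 33469 promoters. Egr1 had 2 CArG boxes (-105 to -96 and -83 to -74), found in 1.64% of promoters. The NBRE to which NR4A receptors bind as monomers (AAAGGTCA, in 1.43% of promoters) was in none of the 7, nor was the AP-1 site TGACTCA (4.63%, its reverse complement TGAGTCA included) or the E-box CACGTG (6.42%). The CRE core TGACG, part of the full CRE, was found in 21.2% of promoters and in 5 of the 7, that is in Fosl1, Junb, Jund, Egr1 and Ier2. In Fosl2 and Fosb these windows held none of the motifs. A match is a string of letters and not a site shown to be bound, and no match says only that the letters are not in this window.

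FPKM are per length of the transcript, so levels of different genes can be set side by side only as far as the listed lengths hold. Fosl2 is listed with 672 nucleotides and Jun with 3094. In Ad-h-NR4A2 samples 517 to 708 fragments lay behind Fosl2 and 2458 to 4167 behind Jun. In Ad-GFP samples Junb had the highest mean (83.7 FPKM), followed by Jund (73.7), Jun (38.3), Myc (24.9), Fos (21.4), Ier2 (10.1), Fosl2 (9.38), Egr1 (8.27), Fosl1 (5.12) and Fosb (0.299). Not all neighbors in this order were apart: the ranges of Junb and Jund, of Myc and Fos, of Ier2 and Fosl2, of Fosl2 and Egr1, and of Egr1 and Fosl1 overlapped. In Ad-h-NR4A2 samples Fosl2 came directly after Junb, and Jund came after Jun and Myc. There, the ranges of Fosl2 and Jun, of Jun and Myc, of Myc and Jund, and of Ier2 and Egr1 overlapped.

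Among the Fos family, Fosl2 (Fra-2), a subunit that is less transient than Fos after a stimulus and lacks its strong activation domain, changed most. It had 6.59, 9.80 and 11.0 FPKM as the lowest, median and highest of 6 Ad-GFP samples and 46.7, 52.0 and 57.4 FPKM in Ad-h-NR4A2 samples. Every Ad-h-NR4A2 value was thus above every Ad-GFP value. Group means of 9.38 ± 1.74 and 52.2 ± 3.99 FPKM (SD, n = 6 each) gave 2.48 as log2 fold change (standard error 0.11; limma, Benjamini-Hochberg-adjusted p = 2.87e-09). In single pairs the log2 difference ran from 2.07 (number 24) to 3.06 (number 27). The values are those of transcript NM_012954, listed with 672 nucleotides at chromosome 6, 35422541 to 35440258 of Rn5; its other transcript, NM_001013146 (420 nucleotides), was assigned 0 fragments in each sample after rounding. Summing both transcripts left the log2 fold change at 2.48. About 86 to 152 fragments (Ad-GFP) and 517 to 708 fragments (Ad-h-NR4A2) lay behind these values, as far as the model's length holds.

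Fosl1 (Fra-1), the close relative of Fosl2, went the other way. Its lowest, median and highest FPKM were 3.13, 5.34 and 7.25 in Ad-GFP samples and 1.56, 2.79 and 4.49 in Ad-h-NR4A2 samples. The groups overlapped, with 3 Ad-h-NR4A2 samples below the lowest Ad-GFP sample, but in 6 of 6 same-numbered pairs the Ad-h-NR4A2 value was lower. Group means of 5.12 ± 1.62 and 2.85 ± 1.16 FPKM (SD, n = 6 each) gave -0.86 as log2 fold change (standard error 0.27; limma, Benjamini-Hochberg-adjusted p = 0.0231). This call depends on single samples. It was lost without Ad-GFP sample 29 (adjusted p = 0.0512), without Ad-h-NR4A2 sample 25 (0.0523), without Ad-h-NR4A2 sample 27 (0.0501) and with no filter on low values (0.0627), each by limma. With the replicate block it was far inside the threshold (standard error 0.087; limma, Benjamini-Hochberg-adjusted p = 3.00e-05). Fosl1 is at chromosome 1, 227755887 to 227764393, and 60 to 303 fragments per sample lay behind it.

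Fos itself, the founding member, was not called. It had 15.5, 21.7 and 26.3 FPKM (lowest, median, highest) in Ad-GFP samples and 15.1, 20.3 and 26.4 in Ad-h-NR4A2 samples. The groups covered nearly the same range, and the log2 fold change was -0.09 with a 95% interval of -0.45 to 0.28 (adjusted p = 0.714, limma). Within pairs the difference was held more tightly, with an interval of -0.18 to 0.01 in the fit with the replicate block (adjusted p = 0.102). Fosb was scarce, with 0.179, 0.298 and 0.428 FPKM in Ad-GFP and 0.227, 0.261 and 0.426 in Ad-h-NR4A2 samples. At 14 to 37 fragments per sample, its log2 fold change of 0.02 had an interval of -0.37 to 0.41, which allows a moderate change in either direction.

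**Figure D2:**
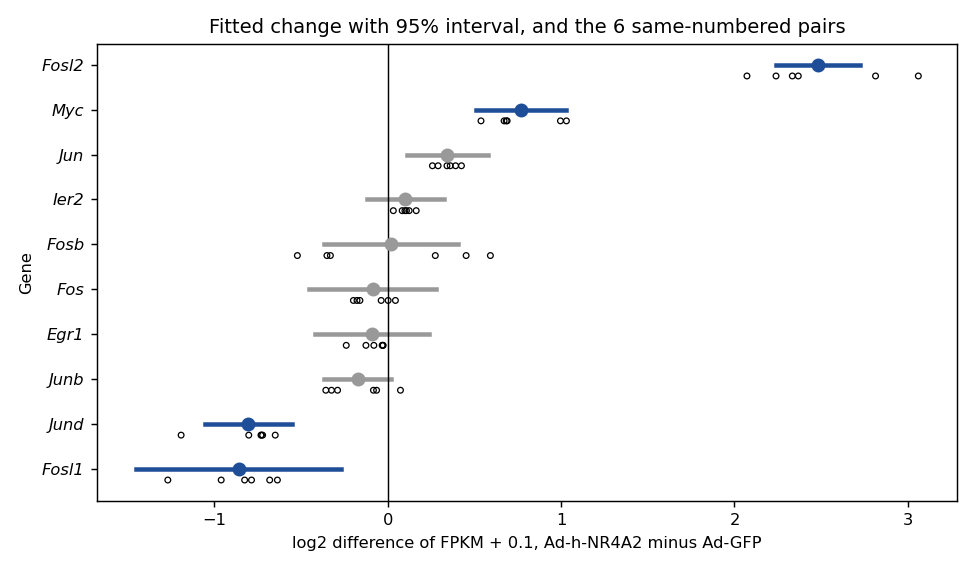
Fitted log2 difference of FPKM + 0.1 (Ad-h-NR4A2 minus Ad-GFP) of the 10 genes with its 95% interval, blue for called genes and gray for the others; open circles below are the 6 same-numbered pairs. Fosl2 stands alone at 2.48, Myc lies above 0, and Jund and Fosl1 lie below 0 with all 6 of their pairs.

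The 3 Jun genes split likewise. Jund, which encodes the Jun protein with the most steady expression in resting cells and can restrain growth in the heart, had 54.9, 72.3 and 95.7 FPKM as lowest, median and highest in Ad-GFP samples and 33.3, 42.5 and 48.0 in Ad-h-NR4A2 samples. No Ad-h-NR4A2 value reached the lowest Ad-GFP value. Group means of 73.7 ± 13.6 and 41.8 ± 4.77 FPKM (SD, n = 6 each) gave -0.80 as log2 fold change (standard error 0.12; limma, Benjamini-Hochberg-adjusted p = 9.57e-05). It is a gene of 1680 nucleotides at chromosome 16, 20342096 to 20343775, and 1098 to 3305 fragments per sample lay behind its values.

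Jun (c-Jun), the subunit activated by the stress kinase JNK, was higher but below the fold limit. Its values were 30.0, 38.9 and 44.6 FPKM (lowest, median, highest) in Ad-GFP and 38.6, 47.7 and 58.5 in Ad-h-NR4A2 samples. The groups overlapped, and 4 of 6 Ad-h-NR4A2 samples exceeded the highest Ad-GFP sample. Its log2 fold change was 0.34 (standard error 0.11; limma, Benjamini-Hochberg-adjusted p = 0.0220), a ratio of 1.27, and the 6 pairs ranged only from 0.26 to 0.43. Without the filter on low values, the adjusted p of Jun was 0.0573. Without regard to fold, 5 of the 10 genes had an adjusted p below 0.05, compared with 40.9% of all tested genes.

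Junb, the most abundant of the 10, had 75.8, 83.2 and 97.4 FPKM in Ad-GFP and 59.2, 77.2 and 87.9 in Ad-h-NR4A2 samples. The groups overlapped, and 5 of 6 pairs were lower with Ad-h-NR4A2. The log2 fold change was -0.17 (95% interval -0.37 to 0.02, adjusted p = 0.138 by limma) and passed only with the replicate block (adjusted p = 0.0253). Within each sample the level of Jun relative to Jund went from 0.466 to 0.582 in Ad-GFP samples to 1.03 to 1.40 in Ad-h-NR4A2 samples.

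Put together, the FPKM of the 7 AP-1 genes summed to 232 ± 21.3 in Ad-GFP and 241 ± 24.4 in Ad-h-NR4A2 samples (SD, n = 6 each). Within this sum the Fos family took 12.2% to 18.0% in Ad-GFP samples and 26.7% to 36.6% in Ad-h-NR4A2 samples. Fosl2 alone went from 3.42% to 4.45% of the sum to 19.1% to 26.9%. Jund went from 27.5% to 38.5% of the sum to 16.1% to 19.5%. The share of Fos was 6.23% to 10.8% and 6.31% to 9.63%. These shares were not tested, and as they are per length they rest on the listed transcript lengths, of which that of Fosl2 is the shortest.

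**Figure D3:**
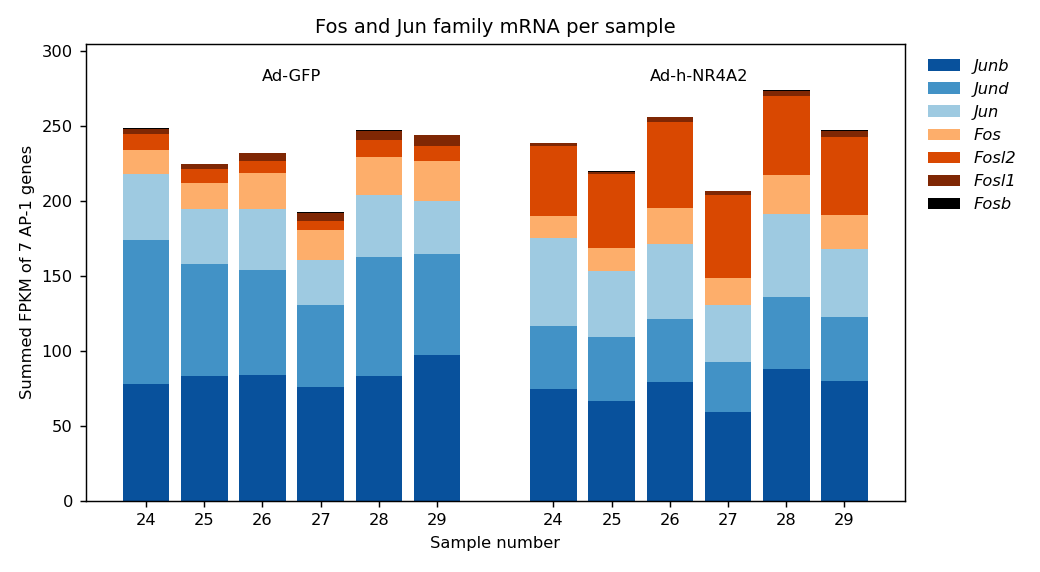
Summed FPKM of the 7 Fos and Jun family genes in each sample (bars, starting at 0), stacked by gene, for sample numbers 24 to 29 of each group. The heights of the bars overlap between the groups (192.6 to 249 and 207 to 274 FPKM), whereas the Fosl2 segment is taller and the Jund segment shorter in all 6 Ad-h-NR4A2 samples than in any Ad-GFP sample.

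Myc, which with its partner Max activates genes of ribosome building and growth, rose. It had 18.1, 27.6 and 29.1 FPKM as lowest, median and highest in Ad-GFP samples and 37.1, 42.2 and 47.0 in Ad-h-NR4A2 samples, with no overlap. The log2 fold change was 0.77 (standard error 0.12; limma, Benjamini-Hochberg-adjusted p = 1.86e-04), from group means of 24.9 ± 4.82 and 42.0 ± 3.78 FPKM (SD, n = 6 each). The gene lies at chromosome 7, 103157452 to 103162378, and 794 to 2624 fragments per sample were behind it.

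Egr1, a zinc finger factor that serum response factor switches on, had 6.15, 8.73 and 9.80 FPKM in Ad-GFP and 5.63, 7.95 and 9.61 in Ad-h-NR4A2 samples. The ranges overlapped almost fully, although the Ad-h-NR4A2 value was the lower of the pair in 6 of 6 pairs. The largest of these differences was -0.24 on the log2 scale, and the fitted value was -0.09 (95% interval -0.42 to 0.24, adjusted p = 0.679 by limma; 0.132 with the replicate block). Ier2, a short-lived nuclear factor, had 8.90, 9.71 and 12.3 FPKM in Ad-GFP and 9.11, 10.5 and 13.2 in Ad-h-NR4A2 samples. It was higher in 6 of 6 pairs, by 0.03 to 0.16 on the log2 scale. Its log2 fold change of 0.10 (95% interval -0.12 to 0.32, adjusted p = 0.458 by limma) passed with the replicate block (adjusted p = 0.0413). The sign was the same in all pairs for 7 of the 10 genes, compared with 53.2% of all tested genes, and with the block 7 of the 10 and 59.4% of all genes had an adjusted p below 0.05.

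Most of the 10 genes varied with the sample number in a like way in both groups. In 8 of 10 genes the same number was lowest in both groups, and in 5 of 10 the same number was highest. Same-numbered samples also deviated together over all tested genes (correlation 0.347 to 0.623), so this is not particular to the 10. The share of all genes with the same lowest or highest number was not counted. Egr1 was lowest in number 24 and highest in number 29 in both groups, Ier2 lowest in 25 and highest in 26, and Jun lowest in 27 and highest in 24. For Fos the SD over 6 samples was 0.31 (Ad-GFP) and 0.35 (Ad-h-NR4A2) on the log2 scale, whereas the SD of the 6 pair differences was 0.10. For Ier2 these were 0.17, 0.20 and 0.04. Fosl2 did not follow this, with SDs of 0.29 and 0.11 and a pair difference SD of 0.38, nor did Fosb, with 0.32, 0.31 and 0.48.

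**Figure D4:**
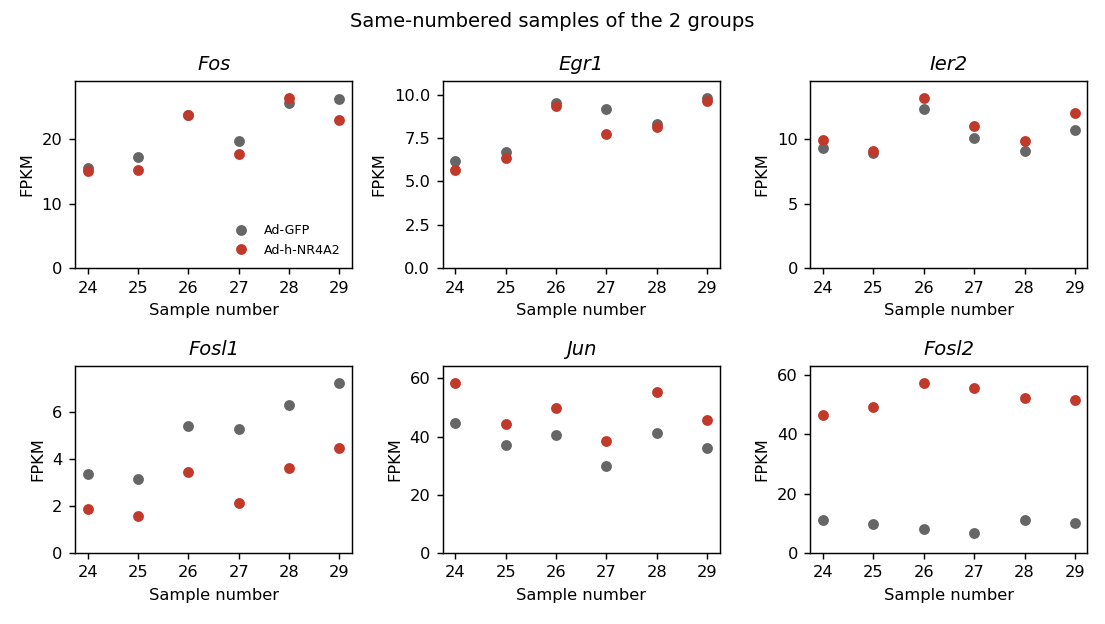
FPKM of 6 of the genes by sample number (24 to 29; the numbers have no order), Ad-GFP in gray and Ad-h-NR4A2 in red, on axes that start at 0. The number with the lowest value is the same in red and gray for Fos, Egr1, Ier2, Fosl1 and Jun, but not for Fosl2, where red and gray points are far apart.

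The genes around these factors were read from lists of partners, regulators and targets. Of 10 tested partner bZIP factors, 1 was called (10%, compared with 15.2% of all genes). This was Mafk, a small Maf protein, which fell from 32.2 to 19.9 FPKM (log2 fold change -0.69). Atf3 had 64.0 and 53.0 FPKM and Atf4, the most abundant, 893 and 854, neither called. Of 8 tested genes of the Myc and Max network, 1 was called (12.5%, compared with 15.2% of all genes). Mlxipl (ChREBP, a glucose-responsive factor) rose from 6.81 to 14.9 FPKM (log2 fold change 1.12), and Max itself had 27.5 and 24.3 FPKM without a call. With the replicate block, Mycn (0.225 and 0.419 FPKM) was called too. Of 3 tested EGR and NAB genes, 2 fell (66.7% called, compared with 15.2% of all genes). These were Egr2 (0.150 and 0.0768 FPKM) and Nab2, a corepressor of EGR proteins (0.489 and 0.265 FPKM), both from low levels. Their log2 fold changes of -0.50 and -0.63 were -0.095 and -0.23 with a pseudocount of 1. The Nab2 call (adjusted p = 0.0459, limma) was lost without Ad-GFP sample 25, 26, 27 or 29 or any of Ad-h-NR4A2 samples 24 to 28, the highest adjusted p being 0.100 (limma, without Ad-GFP sample 26). It was also lost with a pseudocount of 0.01 (adjusted p = 0.0549), with no filter on low values (0.0940) and with median ratio scaling (0.0520), each by limma. Egr3 and Egr4 were not tested because a sample is listed at 0.

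Upstream, 2 of 18 tested genes were called, in opposite directions (11.1%, compared with 15.2% of all genes). Rps6ka5 (MSK1), a kinase that phosphorylates CREB and histone H3 at immediate early genes, fell from 8.74 to 5.00 FPKM (log2 fold change -0.80), and Rps6ka1 (RSK1) rose from 1.41 to 2.42 FPKM (0.75). Srf, the gene of serum response factor, had 22.0 and 21.2 FPKM and was not called.

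Of 29 other tested immediate early genes, 6 rose and 4 fell (34.5% called, compared with 15.2% of all genes). The list was chosen with earlier results of these data known, so the share is not a test of it. Cyr61, a matricellular protein gene driven by YAP and serum response factor, rose most, from 7.56 to 11.7 FPKM in Ad-GFP samples to 112 to 154.5 in Ad-h-NR4A2 samples (log2 fold change 3.95, SE 0.11). Its relative Ctgf had a log2 fold change of -1.08 and was not called (adjusted p = 0.0622, limma), but was with the replicate block (adjusted p = 5.10e-05). Ier3, an antiapoptotic early gene, rose from 72.5 to 285 FPKM (log2 fold change 1.97), Sgk1, a kinase gene, from 11.4 to 33.0 (1.45), and Zfp36l2, an mRNA decay factor, from 0.189 to 0.592 (1.24). At so low a level the log2 fold change of Zfp36l2 depends on the pseudocount, and was 0.41 with a pseudocount of 1 and 1.61 with one of 0.01. Of the 4 genes that fell, Nr4a1, an NR4A receptor, had the largest log2 fold change (-0.93, from 3.79 to 1.93 FPKM). The median log2 fold change of the 29 genes was -0.18, and that of all tested genes -0.02.

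Of 17 tested AP-1 target genes, 3 rose and 7 fell (58.8% called, compared with 15.2% of all genes). The lists were chosen with earlier results of these data known, so a share above that of all genes is no test of a list. With the replicate block 5 of these 17 genes were higher and 7 lower, Timp1 (19.3 and 30.7 FPKM) and Plau (0.392 and 0.654 FPKM) being added. Spp1 (osteopontin) had a log2 fold change of 6.50 and Fst (follistatin) of 3.37, whereas Mmp10 (stromelysin 2) fell by 1.92 and Hmox1 (heme oxygenase 1) by 1.49 on the log2 scale. With a pseudocount of 1 the log2 fold change was 1.73 for Fst and -1.19 for Mmp10. Of 19 tested MYC targets, 2 rose and 2 fell (21.1% called, compared with 15.2% of all genes). Odc1 (ornithine decarboxylase) rose from 53.7 to 96.1 FPKM and Hk2 (hexokinase 2) from 37.7 to 67.5. The cell cycle genes Ccnd2 (218 to 106 FPKM) and Cdkn1a (231 to 147) fell. A part of Myc in these changes was not tested. The median log2 fold change of the tested MYC targets was 0.19. Without regard to fold, 13 of 19 had an adjusted p below 0.05, compared with 40.9% of all tested genes. Of these 13, Ldha, Ccnd2 and Cdkn1a were lower and the others higher. Without Ad-GFP sample 28, Cdkn1a had a ratio of 0.679 and was no longer called. Of 11 tested heat shock genes, Hspa1b and Hspb1 fell, by 0.82 and 0.81 on the log2 scale (18.2% called, compared with 15.2% of all genes). Their part in the results was not tested.

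**Figure D5:**
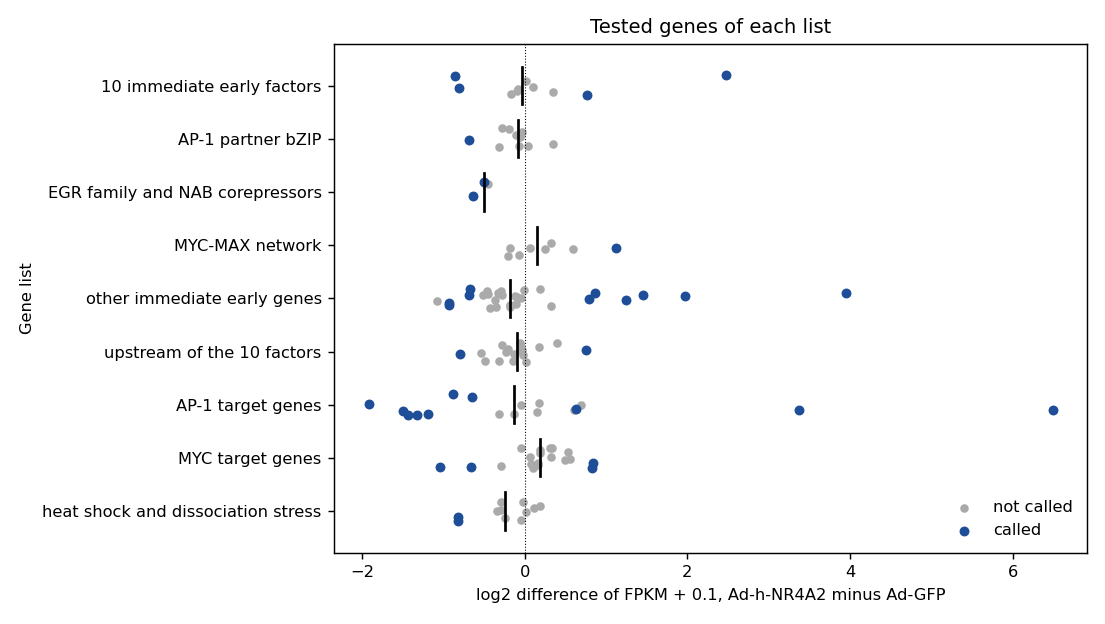
Log2 difference of FPKM + 0.1 (Ad-h-NR4A2 minus Ad-GFP) of the 10 factors (top) and of each tested gene of 8 lists, blue where called and gray otherwise, with the list median as a black bar; the vertical scatter has no meaning. Medians lie between -0.50 (EGR family and NAB corepressors) and 0.19 (MYC targets), and called genes stand on both sides of 0 for the 10 factors, other immediate early genes, upstream genes, AP-1 targets and MYC targets.

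For the 4 called factors, the genes with the most alike profile over the 12 samples were sought among 8978 tested genes of at least 1 FPKM on average. The measure was the root mean square difference on the log2 scale after removal of each gene's mean, where 0 is an identical profile. The difference between the groups was left in, so genes with a like fold change come near by this measure. Shared regulation was not tested. Nearest to Fosl2 were Rom1 (0.20), Spsb4 (0.22) and Trim36 (0.25), and nearest to Fosl1 were Hspb1 (0.24), Etv5 (0.27) and PVR (0.30). For Jund these were P4ha2, Snn and Rttn (each 0.15), and for Myc they were Edem2, Zmat3 and Pabpc1 (each 0.14).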

How the data were processed

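The authors aligned paired-end reads of stranded mRNA libraries with STAR (build Rn5) and used Cufflinks to obtain FPKM for each RefSeq transcript, and the deposited FPKM were used unchanged. FPKM are not counts. The depth was recovered from values of at most 6 fragments, of which 99.2% to 99.8% per sample came out whole within 0.05; fragment numbers cover counting error only. Where a gene had several transcripts, the one highest on average stood for it. The 10950 genes above 0 in all 12 samples were fitted with limma 3.58.1 in R 4.3.3 (two-sided, with trend, Benjamini-Hochberg adjustment, unpaired). The study's t-tests were unpaired too, whereas its RNA sequencing calls came from a Cufflinks workflow at q below 0.05 and at least 1.5-fold. Same-numbered samples deviated together (correlation across genes 0.347 to 0.623 in the 6 pairs), and the paper describes 6 experiments with cells of different rats, so that the replicate block was the paired alternative. The fit was tested on simulated data. The 10 genes and the lists were chosen with earlier results of these data known. At most 4 called genes per list were named, those with the largest change, beside genes named for their role after their values were seen. Python 3.11.15 with pandas 2.3.3 and Matplotlib 3.10.9 served for tables and plots. The exact permutation test planned for genes removed by the filter was not needed. A result for 1 upstream gene is not reported here.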

Additional observations from a re-analysis of the deposited data

Results flagged for a closer look

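No value of the 10 factors themselves lay far from the others of its group. The other genes checked were Nr4a2 and, of each list, at most 4 called genes with the largest change. Among these, 5 values did so, in that their gap to the nearest sample exceeded Dixon's 95% limit for 6 samples. Further genes named in the text were not checked. In all, 76 groups of 6 samples were checked, and chance alone flags about 1 in 20 groups. Cyr61 had 11.7 FPKM in Ad-GFP sample 29 against 7.56 to 8.25 in the other 5, still far below the lowest Ad-h-NR4A2 sample. Egr2 had 0.105 FPKM in Ad-GFP sample 28 against 0.146 to 0.169, and Zfp36l2 had 0.363 FPKM in Ad-GFP sample 24 against 0.0946 to 0.195. In Ad-h-NR4A2 sample 24, Mlxipl had 18.2 FPKM against 13.2 to 15.1, and the cardiomyocyte marker Pln 1249 FPKM against 659 to 876.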

How the results depend on the processing

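Fosl2, Myc and Jund kept their direction and their side of the threshold in all 22 alternative fits, with log2 fold changes of 2.37 to 2.53, 0.68 to 0.82 and -0.88 to -0.72. The number called of the 10 was 3 or 4 with 1 sample left out, 5 without a fold limit, and 1, Fosl2, at a fold limit of 2. The number of all genes called was 1542 to 1769 with 1 sample left out, 803 at a fold limit of 2, and 4484 without one. With the replicate block, 1825 genes and 4 of the 10 were called, and among the 10 the block took only Junb and Ier2 across the adjusted p threshold. Fosb, near 0, changed sign after quantile normalization (-0.054) and ranged from -0.078 to 0.11 with 1 sample left out. Other scalings moved the median of all genes to between -0.04 and -0.01. The Col3a1 call was lost without Ad-GFP sample 25, 26 or 29 and with no filter on low values (limma adjusted p = 0.0651), and the Myh11 call without Ad-GFP sample 28 or Ad-h-NR4A2 sample 27 or 29. Fosb could not be tested at a mean FPKM of at least 1. Its 14 to 37 fragments per sample limit what can be said of it; the causes were not tested.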
